A study of Mus musculus with 24 samples.

Results

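The genes examined here are 10 markers by which epithelial and mesenchymal cells are told apart, of 22367 protein-coding genes in the mouse annotation. They were chosen by name for their known roles. The 4 mesenchymal members are Cdh2, Cdh11, Vim and Fap, and the 6 epithelial members are Cdh1, Epcam, Krt8, Krt18, Krt5 and Krt14. Each gene was taken with 10 kb on each side of its body, called its window below, on the mm9 genome build (NCBIM37). The question was which of these loci carried active chromatin marks or PRRX1 in 3 kinds of cultured mouse fibroblasts, and how this stood after Prrx1 had been mutated or cut.

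Measurements came as 17 peak lists of ChIP-seq, in which DNA bound by a given protein or histone mark is pulled down with an antibody and sequenced. The 3 kinds of cells were mouse embryonic fibroblasts (MEF, strain C57BL/6, taken at embryonic days 10 to 13), fibroblasts of the breast tumours that MMTV-PyMT mice form (MMTV-CAF, for cancer-associated fibroblasts, labelled as strain FVB/NJ) and fibroblasts of C57BL/6 skin wounds at day 10 (wound-healing fibroblasts, or wound cells). For each kind there were lists of histone H3 trimethylated at lysine 4 (H3K4me3), histone H3 acetylated at lysine 27 (H3K27ac) and PRRX1 in WT cells, and lists of both histone marks in SG cells, in which a CRISPR/Cas9 guide against Prrx1 had been used. MEF had a further genotype labelled KI_PRRX1, from mice with the Prrx1tm1Jfm allele, which the study describes as lacZ inserted into the homeodomain. KI and SG cells are together called edited below. WT cells of the CRISPR experiments carried a control guide (SgNS), and the MEF KI and MEF SG lists are both set against the same MEF WT list. All cultures expressed E6 and E7 of human papillomavirus, which immortalise cells, and were grown in the same medium with serum, the strain of MMTV-CAF differs from that of the other kinds, and the zygosity of the KI mice is not in the labels. Every group held 1 library, so each difference below lies between single libraries and was not tested.

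The 7 H3K4me3 lists held 13125 to 29166 regions, the 7 H3K27ac lists 29325 to 61603 summits and the 3 PRRX1 lists 3048 to 8000 summits. The MEF KI lists were the shortest for both histone marks, and their median −log10 p was 9.93 for H3K4me3, against 28.6 in MEF WT and 23.3 in MEF SG. The part of list strength in any difference between MEF KI and MEF WT was not tested. A region lay over a Prrx1 transcription start site (TSS) in 7 of 7 H3K4me3 lists, so these lists do not check whether the protein was lost. The cells were checked against markers: an H3K4me3 region lay over a TSS of 4 to 7 of 8 fibroblast markers, of 0 of 5 blood markers, of 0 to 1 of 5 endothelial markers, of 0 to 2 of 10 markers of simple or luminal epithelium and of 0 of 8 markers of basal epithelium, beside 41.4% to 55.2% of all genes. Ptprc, which marks leukocytes, and Pecam1, which marks endothelium, had no such region in any list. The endothelial marker with one was Kdr, a receptor of vascular endothelial growth factor, listed in 6 of 7 lists, with 5528 bp in WT and 6173 bp in edited wound cells and 460 to 1161 bp in the other 4. In both wound lists Kdr also had an H3K27ac summit within 1 kb of a TSS. H3K27ac summits were less sparse: 1 to 3 of 5 blood and 1 to 3 of 5 endothelial markers had one in the window in each list, Cd68 and Pecam1 in 7 of 7, beside 52.3% to 64.3% of all genes. Among markers of simple or luminal epithelium 4 to 8 of 10 had one, and among basal markers 2 to 4 of 8. Both counts were highest in edited MMTV-CAF. Within 1 kb of a TSS, Csf1r had one in MEF SG and both MMTV-CAF lists and Cd68 in edited MMTV-CAF and wound cells. The part of other cell types in the values of the members was not tested.

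Epithelial cells adhere through E-cadherin and EPCAM and are stiffened by keratin filaments, whereas mesenchymal cells use other cadherins and a cytoskeleton of vimentin. Cells that pass from the first state to the second exchange E-cadherin for N-cadherin, which is known as the cadherin switch. H3K4me3 marks promoters that are active or poised, and its broadest domains lie over genes central to the identity of a cell. H3K27ac marks active promoters and enhancers, and PRRX1 is a homeodomain factor of mesenchymal cells that binds short AT-rich words such as TAATTA.

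The start sites of the members differed in their content of CpG dinucleotides. To show this contrast, the 150 bases before the TSS are given for the epithelial member with the most CpG, Cdh1 (chr8:109127101-109127250, plus strand), and for the member with the least, Krt5 (chr15:101543323-101543472, minus strand), each in mm9 from 5′ to 3′ with every CG in capitals.
Cdh1: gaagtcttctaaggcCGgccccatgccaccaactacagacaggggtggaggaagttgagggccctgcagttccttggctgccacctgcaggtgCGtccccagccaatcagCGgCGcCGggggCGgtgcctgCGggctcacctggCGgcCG
Krt5: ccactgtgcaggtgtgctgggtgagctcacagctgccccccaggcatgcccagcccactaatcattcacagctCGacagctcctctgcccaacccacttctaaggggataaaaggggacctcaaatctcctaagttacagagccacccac
The Cdh1 stretch held 9 CG and the Krt5 stretch 1.

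To show where PRRX1 was listed, the strongest PRRX1 summit with 50 bases on either side is given for Cdh11, Krt8 and Vim, on the plus strand of mm9, with the words TAATTA and TGANTCA in capitals, overlapping copies included. TAATTA is a core word of homeodomain factors and TGANTCA, where N is any base, is the word of AP-1. Both read the same on either strand. The Cdh11 summit was that of MEF (chr8:105275714-105275814, in intron 1), and the Krt8 (chr15:101835978-101836078, upstream of the gene) and Vim (chr2:13497103-13497203, at intron 1) summits were those of MMTV-CAF. The stretch at the strongest H3K27ac summit of Cdh1, from MEF SG (chr8:109143910-109144010), is given with them and was chosen after its values were seen.
Cdh11 PRRX1: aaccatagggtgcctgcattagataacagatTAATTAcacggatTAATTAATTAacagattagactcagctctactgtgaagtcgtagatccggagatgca
Krt8 PRRX1: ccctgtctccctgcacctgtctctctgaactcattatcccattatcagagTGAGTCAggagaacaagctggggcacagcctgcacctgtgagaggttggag
Vim PRRX1: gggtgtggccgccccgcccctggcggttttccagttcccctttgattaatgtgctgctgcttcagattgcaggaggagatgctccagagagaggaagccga
Cdh1 H3K27ac: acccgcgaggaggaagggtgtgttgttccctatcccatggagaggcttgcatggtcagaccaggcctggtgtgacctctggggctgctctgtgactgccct
The Cdh11 stretch held 3 copies of TAATTA, of which a pair overlaps, the Krt8 stretch 1 copy of TGANTCA, and the Vim and Cdh1 stretches 0 of either word.

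H3K4me3 divided the members almost by lineage. Cdh2, Cdh11 and Vim had a region over a TSS in 7 of 7 lists, and Epcam, Krt8, Krt18, Krt5 and Krt14 had one in 0 of 7. Fap and Cdh1 lay between, with short regions in 2 and 4 lists. At a −log10 p of at least 10, only Vim had one in MEF KI, where Cdh2 (8.34) and Cdh11 (9.95) lay just below, and Cdh2, Cdh11 and Vim alone had one in MEF WT and SG. The Cdh1 region of WT wound cells (−log10 p 13.3) passed that limit, and that of edited wound cells (4.59) did not. Without that limit, the number of members with a region over a TSS was 5 in MEF WT, beside 53.1% of all protein-coding genes. It was 3 in MEF KI (41.4% of all genes), 5 in MEF SG (51.4%), 3 in WT (52.4%) and edited (52.9%) MMTV-CAF, and 4 in WT (54.7%) and edited (55.2%) wound cells. The share of members was thus at or below the share of all genes in each list, and what set the members apart was which of them were marked.

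Vim, which encodes the intermediate filament of mesenchymal cells, spans chromosome 2 on the plus strand from 13495554 to 13504453. Its widest H3K4me3 region over a TSS measured 9072 bp in MEF WT, 5127 bp in MEF KI and 9133 bp in MEF SG. It measured 10689 bp in WT and 9654 bp in edited MMTV-CAF, and 5398 bp in WT and 6942 bp in edited wound cells. These were among the widest regions of each list: 97.5% to 99.9% of all marked genes had a narrower one. The fold enrichment over input was nearer the middle of each list, from 4.62 in MEF KI to 10.9 in MMTV-CAF SG, and 50.2% to 77.9% of marked genes had a lower one. In MMTV-CAF WT the region ran from −1.9 to 8.79 kb around the TSS, and so covered nearly the whole gene of 8.9 kb.

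Cdh11, which encodes the cadherin of osteoblasts and other mesenchymal cells, spans chromosome 8 on the minus strand from 105156895 to 105309011. Its region over the TSS measured 4966 bp in MEF WT, 3390 bp in MEF KI and 4041 bp in MEF SG. It measured 6230 bp in WT and 6069 bp in edited MMTV-CAF and 4439 bp in WT and 6136 bp in edited wound cells. MMTV-CAF and wound-healing SG had the widest regions and MEF KI the narrowest. The fold enrichment was 4.69, 3.08 and 4.18 in MEF WT, KI and SG, 11.5 in WT and 6.62 in edited MMTV-CAF, and 8.91 in WT and 9.96 in edited wound cells. A short separate region lay about 4 kb inside the gene in all 3 MEF lists and in WT wound cells, at a place that the wider regions of the other lists covered.

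Cdh2, which encodes N-cadherin, spans chromosome 18 on the minus strand from 16747386 to 16967755. Its region measured 4494 bp in MEF WT, 3637 bp in MEF KI and 4896 bp in MEF SG. It measured 4467 bp in WT and 4649 bp in edited MMTV-CAF and 3647 bp in WT and 5226 bp in edited wound cells. The MEF KI and wound-healing WT regions were the narrowest and lay below the 4 kb at which a region is called broad here. The fold enrichment was 5.49, 2.87 and 5.37 in MEF WT, KI and SG, 12.1 in WT and 16.4 in edited MMTV-CAF, and 8.92 in WT and 9.96 in edited wound cells. In MMTV-CAF SG, 98.7% of marked genes had a lower fold than Cdh2.

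Fap, which encodes fibroblast activation protein, a cell-surface protease used as a marker of activated stroma, spans chromosome 2 on the minus strand from 62339000 to 62412132. Its region over a TSS measured 959 bp in MEF WT and 326 bp in MEF SG, with a fold of 2.96 and 3.64, and none was listed in MEF KI, MMTV-CAF or wound-healing fibroblasts. Fap therefore stood apart from the other mesenchymal members. Of marked genes in MEF WT, 6.47% had a narrower region.

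Counted by breadth, 3 members had a region over 4 kb in MEF WT, beside 5.02% of all genes. The number was 1 in MEF KI (1.49% of all genes), 3 in MEF SG (3.59%), 3 in WT (15.1%) and edited (12.8%) MMTV-CAF, 2 in WT wound cells (4.83%) and 3 in edited wound cells (8.58%). The broad members were Vim in 7 of 7 lists, Cdh11 in all but MEF KI, and Cdh2 in all but MEF KI and wound-healing WT. No epithelial member had a region over 4 kb.

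**Figure D1:**
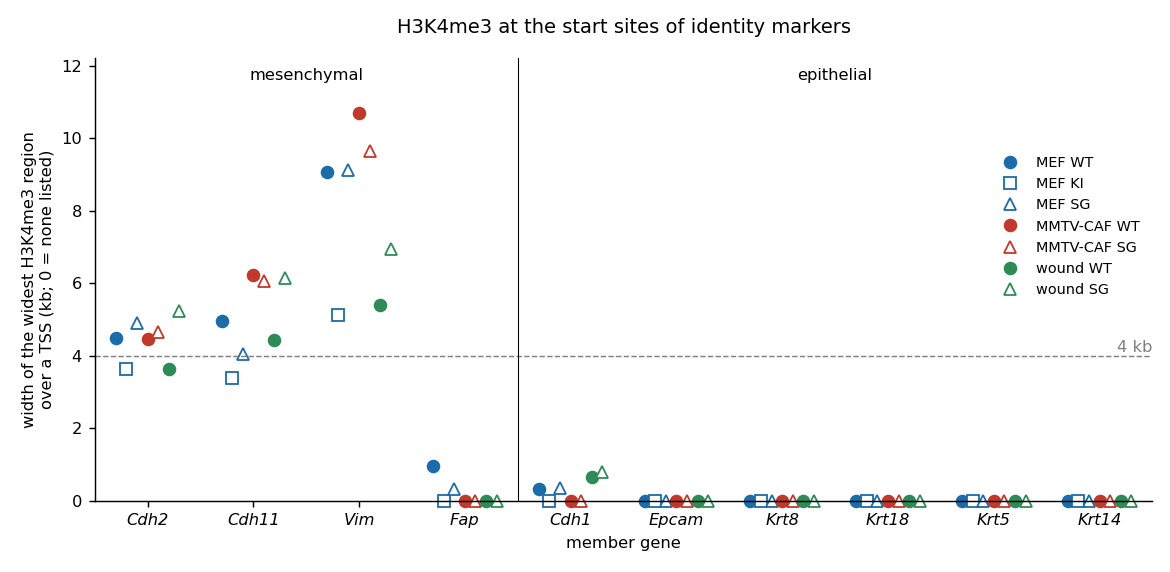
Width in kb of the widest H3K4me3 region over a TSS of each member (1 point for each of 7 lists, filled for WT and open for Prrx1-edited cells, at 0 where none was listed). Vim, Cdh11 and Cdh2 lie between 3.39 and 10.7 kb in every list, whereas Fap and the epithelial members lie below 1 kb or at 0.

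Cdh1, which encodes E-cadherin, spans chromosome 8 on the plus strand from 109127251 to 109194146. A narrow H3K4me3 region over its TSS measured 333 bp in MEF WT and 357 bp in MEF SG, with a fold of 2.18 and 2.07. It measured 663 bp in wound-healing WT and 783 bp in wound-healing SG, with a fold of 5.97 and 3.76, and none was listed in MEF KI or either MMTV-CAF list. In MEF WT only 0.446% of marked genes had a narrower region, and in wound-healing SG 4.2%. The E-cadherin promoter was thus listed in 4 of 7 lists, but with some of the shortest regions of any gene. In a bulk culture, a mark in few cells and a weak mark in many cells cannot be told apart.

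Epcam, which encodes an adhesion molecule of simple epithelia, spans chromosome 17 on the plus strand from 88035319 to 88050446. No H3K4me3 region lay over its TSS, but 1 lay just inside the gene in both wound-healing lists, from 244 to 1188 bp after the TSS in WT (945 bp, fold 4.47) and from 390 to 1050 bp in SG (661 bp, fold 4.03). Krt18, which encodes the type I keratin of simple epithelia, spans chromosome 15 on the plus strand from 101858647 to 101862457. In WT wound cells a region of 247 bp began 26 bp after its TSS, with a fold of 3.18. These near misses were all in wound-healing fibroblasts.

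Krt8, the type II partner of Krt18, spans chromosome 15 on the minus strand from 101827142 to 101834773, 23.9 kb from Krt18 and head to head with it. Krt8 had short H3K4me3 regions away from its TSS in MMTV-CAF only: 3 in WT, of 284, 451 and 472 bp, and 3 in SG, of 361, 546 and 1259 bp. Those of 284, 451 and 1259 bp lay 15.5 to 17.0 kb past the start and beyond the end of the gene, and the others upstream. The keratins of the basal layer of stratified epithelia, Krt5 (chromosome 15, 101537501 to 101543322, minus strand) and Krt14 (chromosome 11, 100064476 to 100068862, minus strand), had no H3K4me3 region in the window in any list.

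CpG content followed much of this order. The observed over expected CpG within 500 bp of the TSS was 0.869 at Cdh2, 0.717 at Cdh1 and 0.639 at Cdh11, the only members at or above 0.6. It was 0.548 at Krt18, 0.529 at Vim, 0.466 at Epcam, 0.459 at Fap and 0.437 at Krt8, and lowest at Krt14 (0.291) and Krt5 (0.284). Among all genes, 86.6% to 92.0% of those at or above 0.6 had an H3K4me3 region over a TSS, except in MEF KI with 71.2%, whereas below 0.6 the share was 16.5% to 24.5%. Vim, marked in 7 of 7 lists, lay below 0.6, and Cdh1, unmarked in 3 of 7, lay above it.

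**Figure D2:**
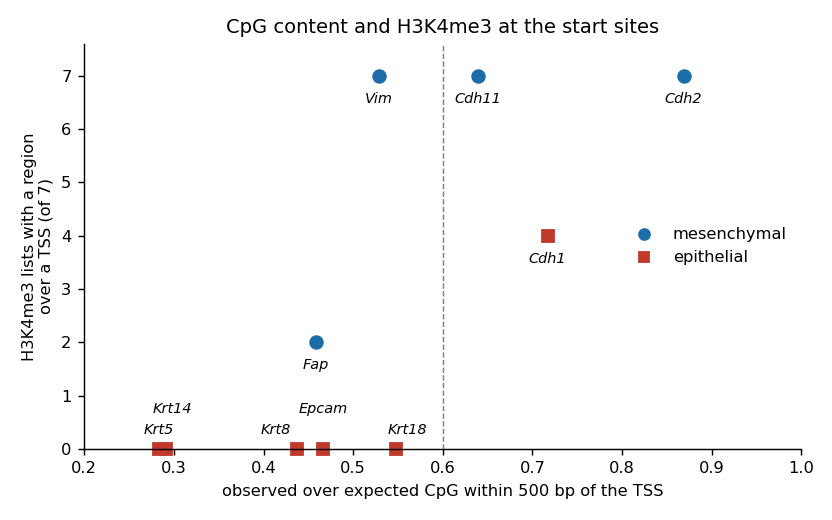
Number of H3K4me3 lists, of 7, with a region over a TSS of each member, against the observed over expected CpG within 500 bp of the TSS (dashed line at 0.6). Cdh2, Cdh11 and Vim are at 7, Cdh1 at 4, Fap at 2 and the keratins and Epcam at 0.

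H3K27ac summits were spread over more of the members than H3K4me3. The number of members with at least 1 summit in the window was 6 in MEF WT, beside 61.5% of all genes. It was 4 in MEF KI (52.3% of all genes), 6 in MEF SG (62.9%), 6 in WT (62%) and edited (64.3%) MMTV-CAF, 5 in WT wound cells (58.2%) and 6 in edited wound cells (63%), which is close to the share of all genes. Within 1 kb of a TSS the lineages parted. There 4 members had a summit in MEF WT (48.9% of all genes), 3 in MEF KI (38.3%), 3 in MEF SG (50.7%), 3 in WT (49.2%) and edited (51.3%) MMTV-CAF, and 3 in WT (47.7%) and edited (49.9%) wound cells. All of these were mesenchymal except Krt14 in MEF SG.

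At Vim the summits numbered 3, 2 and 4 in MEF WT, KI and SG, 6 in WT and 7 in edited MMTV-CAF, and 2 in WT and 3 in edited wound cells. A summit lay 133 to 946 bp after the TSS in 7 of 7 lists, with a −log10 p of 84.4 in MEF WT, 21.8 in MEF KI, 113 in MEF SG, 94.8 in WT and 140 in edited MMTV-CAF, and 51.1 in WT and 90.4 in edited wound cells. In MMTV-CAF SG 99.9% of summits of the list were weaker. Most further summits lay 3.21 to 7.31 kb past the TSS, within the gene body.

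At Cdh11 the summits numbered 5, 3 and 5 in MEF WT, KI and SG, 4 in WT and 3 in edited MMTV-CAF, and 3 in WT and 6 in edited wound cells. They fell into 2 stretches, from −0.38 to 4.25 kb around the TSS and, within intron 1, from 42.1 to 45.8 kb. The intronic stretch was listed in the 3 MEF lists, WT MMTV-CAF and edited wound cells, and was not listed in edited MMTV-CAF or WT wound cells. In MEF SG the nearest summit lay 1.19 kb from the TSS, and Cdh11 was not counted within 1 kb there although its −log10 p was 49.2.

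Cdh2 had the most summits of any member in 6 of 7 lists (Krt8 had 8 in edited MMTV-CAF). They numbered 13, 9 and 9 in MEF WT, KI and SG, 9 in WT and 7 in edited MMTV-CAF, and 7 in WT and 21 in edited wound cells. Its window is also the longest, with a gene body of 220 kb. Per 10 kb of window the number was 0.541 in MEF WT, against a median of 0.247 over all genes, and 0.874 in wound-healing SG, against 0.252. These were the highest values of any list. In MMTV-CAF WT it was 0.374, against 0.271, and in MMTV-CAF SG alone it lay below the median, with 0.291 against 0.319. The summits clustered at the promoter and in intron 2, from 62.8 to 106 kb past the TSS. A stretch of intron 2 at 67.6 to 68.6 kb was listed in 7 of 7 lists. The summits at 104 to 106 kb were listed in MEF WT and KI, WT MMTV-CAF and edited wound cells, and not in the other 3 lists.

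Fap had 2 summits in MEF WT, 0.205 kb (−log10 p 12.3) and 10.5 kb (7.61) from the TSS, and 0 in the other 6 lists. As with H3K4me3, the mark at Fap was thus listed in MEF alone.

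**Figure D3:**
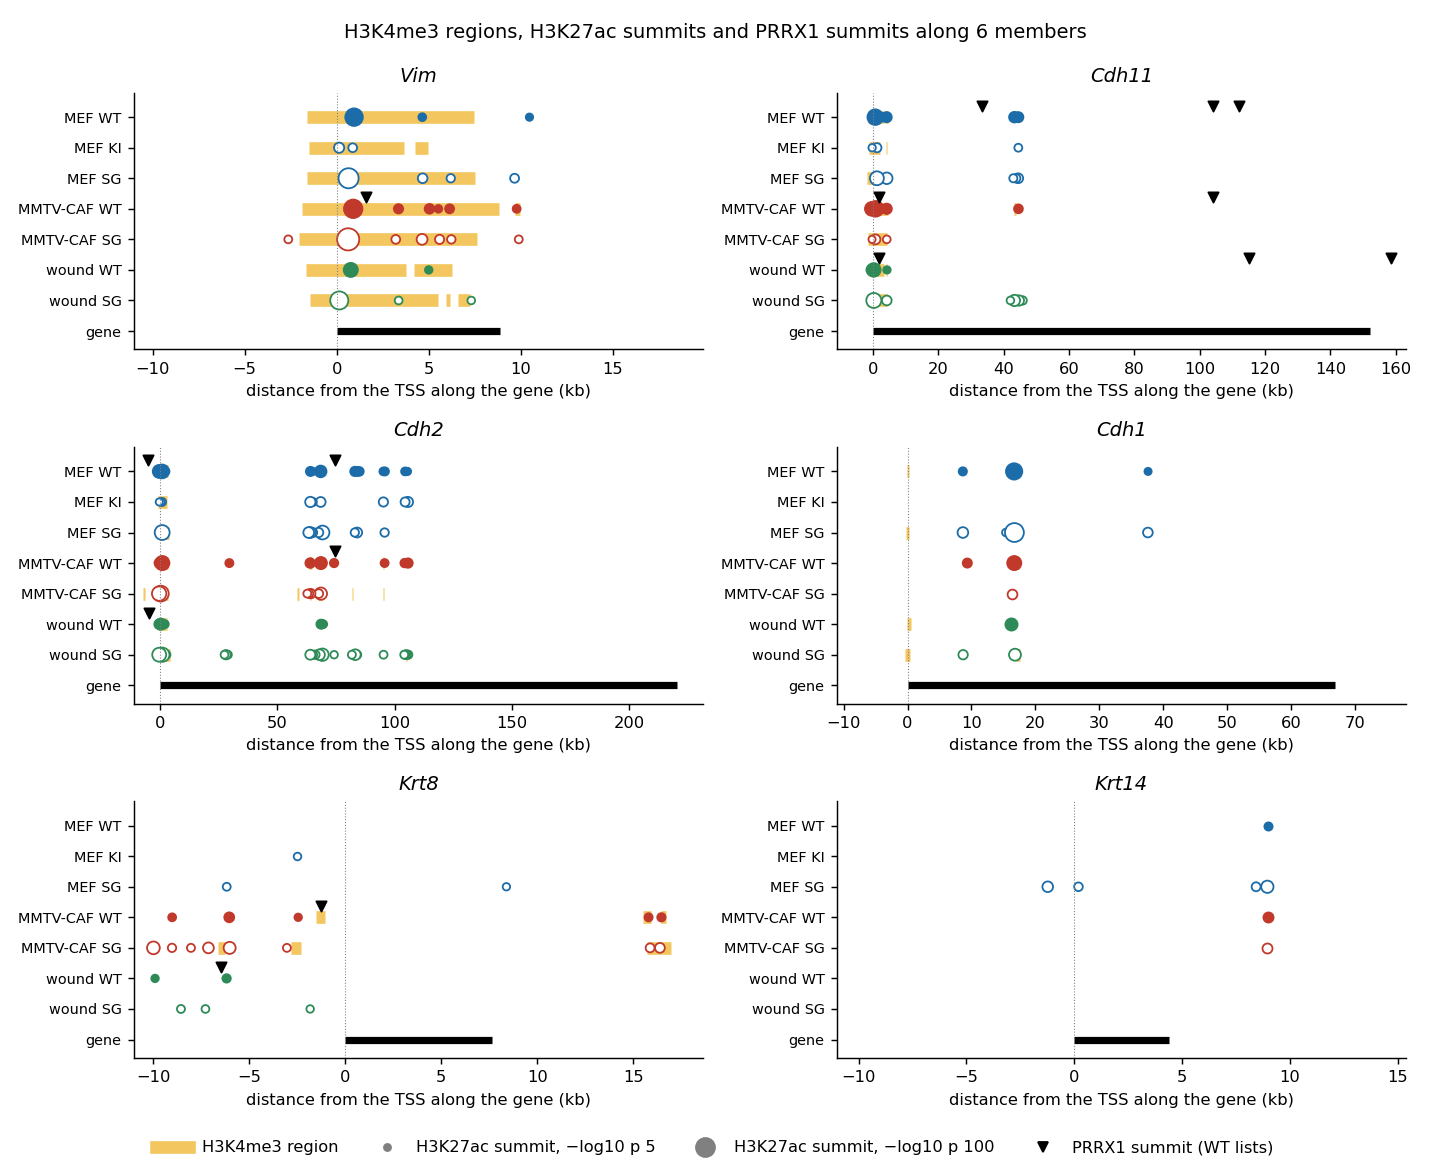
Positions of H3K4me3 regions (bars), H3K27ac summits (circles, area by −log10 p, filled for WT and open for edited cells) and PRRX1 summits (triangles, above the WT row of each kind of cell) along 6 members, as distance in kb from the TSS in the direction of transcription. Vim carries bars over much of the gene, whereas the strongest circles of Cdh1 lie 16.2 to 16.8 kb inside the gene.

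At Cdh1 the summits numbered 3, 0 and 4 in MEF WT, KI and SG, 2 in WT and 1 in edited MMTV-CAF, and 1 in WT and 2 in edited wound cells. None lay within 1 kb of a TSS. Instead a site in intron 2, 16.2 to 16.8 kb past the TSS, was listed in 6 of 7 lists, with a −log10 p of 71.6 in MEF WT, 99.6 in MEF SG, 51.3 in WT and 19.4 in edited MMTV-CAF, and 35.6 in WT and 33.9 in edited wound cells. In MEF WT 96.5% of the summits of the list were weaker, so in that list this site of the E-cadherin gene ranked with the strong summits. Elsewhere the share that was weaker ran from 53.8% in edited MMTV-CAF to 96.3% in MEF SG, with 75.7% in edited wound cells. The site was not listed in MEF KI. A short H3K4me3 region lay at 16.1 to 17.5 kb in WT MEF (373 bp), WT MMTV-CAF (1349 bp) and edited wound cells (530 bp), and the summit of MEF SG is the one whose sequence is printed above.

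At Krt8 the summits numbered 0, 1 and 2 in MEF WT, KI and SG, 5 in WT and 8 in edited MMTV-CAF, and 2 in WT and 3 in edited wound cells. MMTV-CAF thus had the most. The summits did not touch the TSS: they lay from −10 to −1.83 kb, between Krt8 and Krt18, or beyond the end of the gene, from 15.8 to 16.5 kb in MMTV-CAF and at 8.39 kb in MEF SG. The strongest, in MMTV-CAF SG, lay at −10 kb with a −log10 p of 39.7, and 77.4% of the summits of that list were weaker. In MMTV-CAF SG 98.1% of all genes had fewer summits per length of window than Krt8.

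Krt14 had 1 summit in MEF WT, 4 in MEF SG, 1 in each MMTV-CAF list and 0 in the other 3 lists. A place 8.95 to 8.99 kb past the start, beyond the gene, was listed in MEF WT, MEF SG and both MMTV-CAF lists, and the window there also holds Krt9. Only MEF SG had summits at the Krt14 promoter itself, 0.197 kb after the TSS (−log10 p 12.9) and at −1.23 kb (24.7). Krt18 had 1 summit, in wound-healing SG, 9.8 kb upstream with a −log10 p of 8.64. Epcam and Krt5 had 0 summits in 7 of 7 lists.

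PRRX1 was listed at 2 to 4 of the 10 members, and never within 1 kb of a TSS of a member. The members with a summit in the window were 2 in MEF (Cdh2 and Cdh11), beside 7.03% of all genes, 4 in MMTV-CAF (also Vim and Krt8), beside 22.1%, and 3 in wound cells (Cdh2, Cdh11 and Krt8), beside 16.8%. In lists of equal size or at a −log10 p of at least 10, MMTV-CAF had 1 (Cdh2), and the summits at Cdh11, Vim and Krt8 fell below these limits. In wound cells Krt8 dropped out in lists of equal size, and Cdh11 and Krt8 at a −log10 p of at least 10. MEF had 0 members at that level. The share of all genes was not taken at these 2 settings. These made 15 summits, 5 in each list, at 11 separate sites, of which 4 were listed in more than 1 kind of cell. Fap, Cdh1, Epcam, Krt18, Krt5 and Krt14 had none. The genes of Cdh2 and Cdh11 span 220 and 152 kb, and the shares of all genes were not matched for length. Per 10 kb of window, Cdh2 had 0.0416 PRRX1 summits in MMTV-CAF, above 78.8% of genes, where 77.9% had none. Wound cells gave 0.0416, above 84.2%, where 83.2% had none. MEF gave 0.0832 for Cdh2, above 95.2%. Cdh11 lay above 82.3% (MMTV-CAF) to 97.2% (MEF), and Vim and Krt8 above 92.9% to 95.5%. The part of length in these counts was not tested.

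The summits at Cdh2 were the strongest. One site 74.5 kb past the TSS in intron 2 had a −log10 p of 12.4 in MMTV-CAF and 7.99 in MEF, and another 4.9 kb upstream had 11.5 in wound-healing fibroblasts and 9.71 in MEF. The intronic site of MMTV-CAF lay 308 bp from an H3K27ac summit of the same cells. At Cdh11 the −log10 p ran from 6.18 to 7.29. Most Cdh11 sites lay 33.2 to 115 kb past the TSS in introns 1 to 5, and 1 lay beyond the end of the gene, but in MMTV-CAF and wound-healing fibroblasts 1 site lay 1.7 and 1.78 kb past the TSS, inside the H3K4me3 region of the same cells.

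At Vim the only summit, in MMTV-CAF, lay 1.6 kb past the TSS with a −log10 p of 6.86, inside the broad H3K4me3 region. At Krt8 the MMTV-CAF summit lay 1.26 kb upstream with a −log10 p of 6.66, inside a short H3K4me3 region of 472 bp, and the wound-healing summit lay 6.46 kb upstream with 5.27. The latter was 271 bp from an H3K27ac summit of the same cells. Of the 15 summits at the members, 2 lay within 500 bp of an H3K27ac summit and 4 inside an H3K4me3 region of the same cells.

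TAATTA occurred no farther than 100 bp from 8 of the 15 summits, 4 of 5 for MEF and 2 of 5 for each of the other kinds. Over all PRRX1 summits of these lists the share was 69.1%, 35.5% and 41.9%, and over WT H3K27ac summits of the same length it was 1.79% to 2.78%. The upstream site of Cdh2 held 8 copies, overlapping ones counted. The word TGANTCA lay within 100 bp of 4 of the 15, among them the Krt8 summit of MMTV-CAF, against 12.9% (MEF), 18.3% (MMTV-CAF) and 13.0% (wound cells) of all PRRX1 summits.

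The marks were then compared between WT and Prrx1-edited cells of the same kind. No member gained an H3K4me3 region over a TSS in any comparison, and the loci of Epcam and the keratins stayed without one. Of all genes without a region in WT, 0.724% had one in MEF KI, 0.906% in MEF SG, 4.06% in edited MMTV-CAF and 4.14% in edited wound cells. A region present in WT was missing in MEF KI for 2 of 5 members, Fap and Cdh1, beside 22.6% of all genes. It was missing for 0 of 5 members in MEF SG (4.04% of all genes), 0 of 3 in edited MMTV-CAF (2.67%) and 0 of 4 in edited wound cells (2.43%).

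The width at the start sites is given beside that of all genes of the same pair. In MEF KI the log2 ratio over WT was −0.31 for Cdh2, −0.55 for Cdh11 and −0.82 for Vim, against a median of −0.33 over all genes marked in both lists. In MEF SG it was 0.12 for Cdh2, −0.30 for Cdh11, 0.0097 for Vim and 0.10 for Cdh1, against −0.093 over all genes. Fap in MEF SG, at −1.56, was among the lowest: 0.465% of genes had a lower ratio.

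In MMTV-CAF SG the ratio was 0.058 for Cdh2, −0.038 for Cdh11 and −0.15 for Vim, against −0.055 over all genes. In wound-healing SG it was 0.52 for Cdh2, 0.47 for Cdh11, 0.36 for Vim and 0.24 for Cdh1, against 0.18 over all genes. All 4 members were thus wider in wound-healing SG than in WT, as was the median gene, but with widths summed over all regions within 1 kb of a start site Vim was at −0.046, since WT has a second region there. The fold enrichment did not always follow the width. For Cdh11 in MMTV-CAF the log2 ratio of the fold was −0.79, and 0.482% of genes had a lower one, and for Cdh1 in wound-healing fibroblasts it was −0.67, with 0.209% lower.

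**Figure D4:**
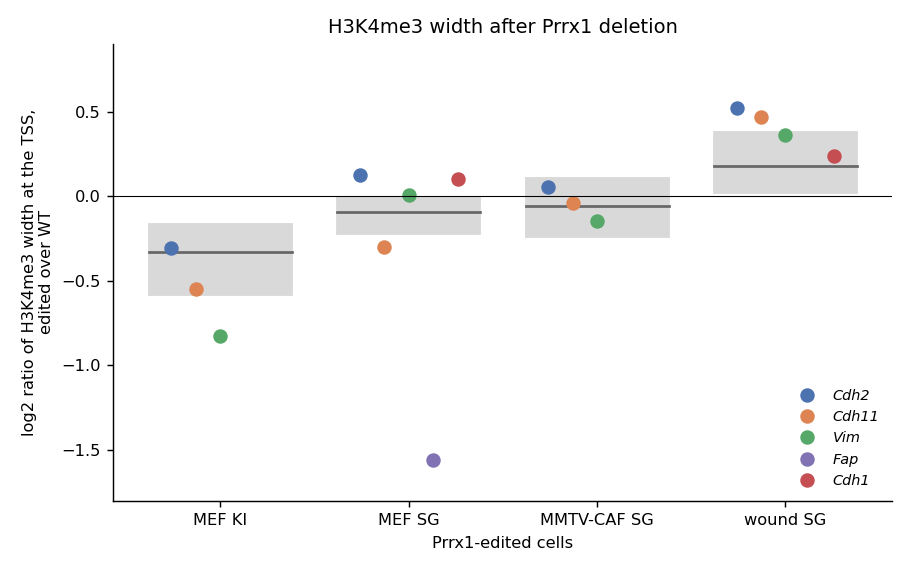
Log2 ratio of H3K4me3 width at the TSS, edited over WT cells, for members marked in both lists of a pair (points), with the median (line) and quartiles (grey box) of all genes marked in both. The mesenchymal cadherins and Vim lie near the box of each pair, and Fap in MEF SG lies far below it.

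Of the WT H3K27ac summits in the windows of the members, those with a summit within 500 bp in the edited cells were 10 of 27 in MEF KI, or 37.0% (Wilson 95% interval 21.5 to 55.8%), beside 47.4% over the windows of all genes. They were 15 of 27 in MEF SG, or 55.6% (37.3 to 72.4%), beside 71.4%, and 18 of 27 in MMTV-CAF SG, or 66.7% (47.8 to 81.4%), beside 65.9%. In wound-healing SG they were 7 of 15, or 46.7% (24.8 to 69.9%), beside 68.1%. At a distance of 1 kb the share kept was 86.7% in edited wound cells, beside 84.3% over all genes, and 74.1% in MEF SG, beside 83.2%. At a −log10 p of at least 10 in both lists, MEF KI kept 3 of 18, or 16.7%, beside 38.5% over all genes. Edited wound cells kept 4 of 11, or 36.4%, beside 71.6%. MEF SG kept 66.7% there, beside 73.8%, and edited MMTV-CAF 59.1%, beside 67.7%. In lists of equal size edited wound cells kept 36.4%, beside 65.5%, and MEF KI 50%, beside 61.2%. MEF SG kept 58.3%, beside 75.5%, and edited MMTV-CAF 53.3%, beside 67.7%. As first given, each interval, which covers counting error over summits and not differences between cultures, held the value of all genes.

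By lineage, the 4 epithelial summits of MEF WT were kept in 0 of 4 cases in MEF KI and in 4 of 4 in MEF SG. The mesenchymal summits were kept in 10 of 23 and 11 of 23. Edited MMTV-CAF kept 6 of 8 epithelial and 12 of 19 mesenchymal summits, and edited wound cells 1 of 3 and 6 of 12. The 4 epithelial summits of MEF WT were 3 of Cdh1 and 1 of Krt14.

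In the other direction, summits of edited cells without a WT summit within 500 bp made up 5 of 15 in MEF KI, 13 of 28 in MEF SG, 7 of 27 in edited MMTV-CAF and 31 of 36 in edited wound cells. The share was 33.3% in MEF KI, against 27.7% over the windows of all genes, 46.4% in MEF SG, against 28.9%, and 25.9% in edited MMTV-CAF, against 40.9%. In edited wound cells it was 86.1%, against 44.9% over all genes, and 75% when a distance of 1 kb was allowed, against 34.2%. At that distance the share fell to 6.67% in MEF KI (16.0% over all genes), 21.4% in MEF SG (19.99%) and 11.1% in edited MMTV-CAF (28.2%), and in lists of equal size MEF KI had 60%, against 35.04%. Both settings were chosen after the data were seen. Summits without a WT summit within 500 bp made up 25 of 30 mesenchymal and 6 of 6 epithelial summits of edited wound cells. Within 1 kb they made up 22 of 30 mesenchymal ones. The 500 bp limit counted the strongest Vim summit of edited wound cells as new, at 0.143 kb past the TSS against 0.768 kb in WT. It did so too for the strongest Cdh1 summit, at 16.8 kb against 16.2 kb in WT. Cdh2 had 21 summits in wound-healing SG against 7 in WT. The wound-healing SG list was longer than the WT list, with 43058 against 33465 summits, and 77.8% were without a counterpart in lists of equal size, against 33.3% over all genes.

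**Figure D5:**
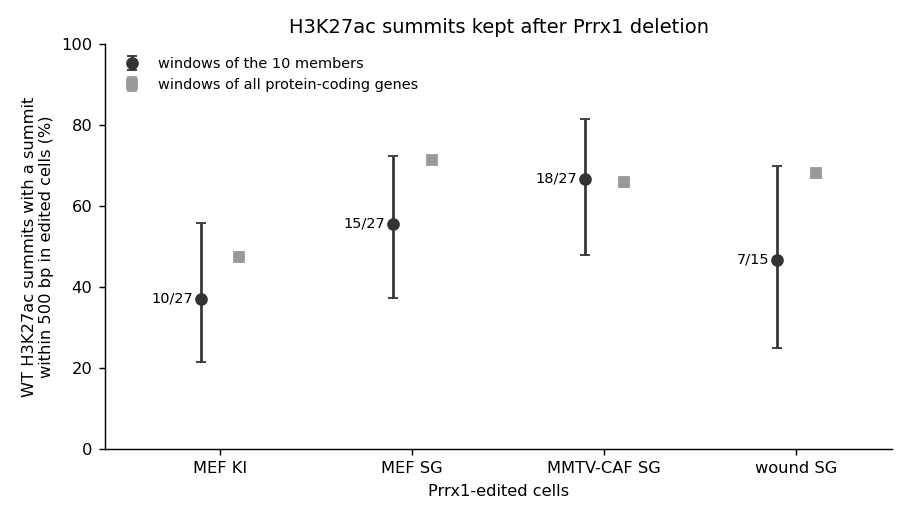
Percent of WT H3K27ac summits with a summit within 500 bp in edited cells, for the windows of the 10 members (circles, with kept and total numbers) and of all protein-coding genes (squares), with Wilson 95% intervals. The members range from 37.0% in MEF KI to 66.7% in MMTV-CAF SG.

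Other genes of the same programmes gave a background for the members. Of 15 further mesenchymal genes, such as Fn1, Pdgfra and Col1a2, 6 to 11 had an H3K4me3 region over a TSS, the fewest in MEF KI (6, beside 41.4% of all genes) and the most in MEF WT (11, beside 53.1%). Of 9 further keratins, 0 or 1 had one in each list, beside 41.4% to 55.2% of all genes. The keratin with a region was Krt19, in WT MMTV-CAF (2313 bp) and in WT (1763 bp) and edited (1660 bp) wound cells. Krt19, a keratin of simple epithelia, also had an H3K27ac summit within 1 kb of a TSS in 7 of 7 lists, unlike Krt8 and Krt18. Of 12 genes of epithelial junctions and adhesion, 0 to 7 had an H3K4me3 region, with 7 in wound-healing WT (Cdh3, Ocln, Cldn3, Dsp, Jup, St14 and Spint1), which is near the 54.7% of all genes in that list, and 0 in MEF KI. Jup, which encodes plakoglobin, a junction protein that mesenchymal cadherins also use, was marked in 6 of 7 lists.

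The genes with the pattern most like that of each mesenchymal member, by Euclidean distance over 14 values (log2 of 1 plus the H3K4me3 width in bp and log2 of 1 plus the number of H3K27ac summits, in 7 lists each), were found among all protein-coding genes. For Vim they were Hspa5 (distance 1.27), Snx5 (1.49) and Trim59 (1.60). For Cdh2 they were Hivep2 (1.24), Spnb2 (1.33) and Wdr1 (1.39), and for Cdh11 Xpnpep3 (0.68), Hdgf (0.916) and Otud4 (0.985). For Fap they were Klhl13 (2.09), Chrna7 (2.11) and Ticam2 (2.31), genes with short H3K4me3 regions in MEF WT and SG and without H3K27ac summits.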

How the data were processed

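ChIP-seq peak lists of 17 libraries were analysed, and the 7 inputs were not used here. According to the labels and the study's methods, the authors cleaned reads with Trimmomatic, mapped them with Bowtie to the mm9 build, discarded PCR duplicates through Picard, and made 1 peak list per library in MACS2 with input as the background. Whether duplicate PRRX1 ChIPs were pooled is not given in the sources used here. For H3K27ac and PRRX1 the deposited values are the −log10 p of single-base summits, with a lowest value of 5.00 for H3K27ac and 3.00 for PRRX1. The study's methods name a stricter limit than 3.00 for such peaks, and 9.88% (MEF), 17.6% (MMTV-CAF) and 22.0% (wound cells) of the PRRX1 summits lay below 5. They were kept, and with a minimum of 5 the same number of members had PRRX1. For H3K4me3 the authors' broad-region calls come with a ratio (fold over input), −log10 p and −log10 q. The integer score of the deposited regions is q rescaled by MACS2 and was not used. Library totals are not part of these lists, so the depth behind each list is unknown.

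Genes and start sites came from GENCODE vM1 on NCBIM37, which is the mm9 build, and 0 intervals lay beyond a chromosome end. A member had H3K4me3 where a region overlapped any annotated TSS, and its width and fold are those of the widest such region. Distances are from the 5′ end of the gene. Regions over 4 kb were called broad. A summit was kept where another lay within 500 bp. With 1 library per group, no test was made. Each count of members, share of summits and width ratio, as first given, stands beside the same value over all 22367 protein-coding genes. Observed over expected CpG was taken from 500 bp before to 500 bp after the start, and words within 100 bp of a summit. Scripts were tested on simulated peaks. The software was Python (3.11.15) with pandas (2.3.3), numpy (2.4.6), matplotlib (3.10.9) and scipy (1.17.1).

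The text names all 10 members, genes of the marker lists where 5 or fewer were counted, the 3 genes nearest to each mesenchymal member, and the strongest PRRX1 summit of each member, other than Cdh2, whose sequence is not reported here. The names of 7 junction genes, of Kdr, of example mesenchymal genes and of Cdh1's intronic site go beyond this rule and were chosen after their values were seen. The members and lists were chosen with earlier results of these data known. Alternatives were a −log10 p of at least 10 (or 5 for PRRX1), lists of equal size, other windows and distances, the widest 5% of regions as broad, and summed widths.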

Additional observations from a re-analysis of the deposited data

Results flagged for a closer look

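The H3K4me3 width of Cdh11 went in opposite directions between kinds of cells when edited lists were set against WT: the log2 ratio was −0.55 for KI and −0.30 for SG in MEF and −0.038 in edited MMTV-CAF, but 0.47 in edited wound cells. For Vim it was −0.15 in edited MMTV-CAF and 0.36 in edited wound cells, but −0.046 in the latter when widths were summed within 1 kb of a start site, so that the directions no longer differed. The number of H3K27ac summits at the 4 mesenchymal members, edited minus WT, was −9 for KI and −5 for SG in MEF, −2 for MMTV-CAF and 18 for wound cells. Most of the last value came from Cdh2, with 7 summits in WT and 21 in edited wound cells. Cdh11 had 3 and 6, Vim 2 and 3, and Fap 0 in both. Over the windows of all genes, MEF had 33898 summits (WT), 22806 (KI) and 33348 (SG), and the other counts were 41619 in WT and 46825 in edited MMTV-CAF, and 28076 in WT and 34096 in edited wound cells. The sign at the members was thus that of all genes except in MMTV-CAF. In H3K27ac lists of equal size, a setting added after the data were seen, the same difference was 3 for KI and 2 for SG in MEF (11 summits in WT, 14 and 13 in edited cells), −5 for MMTV-CAF and 7 for wound cells, so the lower number in edited MEF did not hold at equal length. With 1 library per group, these differences between kinds of cells were not tested. The median width over all genes was likewise higher in edited than in WT wound cells (log2 ratio 0.18) and lower in the other pairs, and the part of that shift in the values of Cdh11 and Vim was not tested.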

How the results depend on the processing

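With regions of a −log10 p of at least 10, members with H3K4me3 over a TSS were 3 (MEF WT), 1 (KI) and 3 (SG). With the widest 5% of regions as broad, MEF KI had 2 broad members. Counting only summits within 1 kb of a TSS, members with H3K27ac were 3 in MEF SG, MMTV-CAF WT and SG, and wound-healing WT and SG. Members with PRRX1 at a −log10 p of at least 10 were 0 in MEF and 1 (Cdh2) in both MMTV-CAF and wound cells. With 25 kb on each side they were 5 in MEF and 5 in wound cells, where Vim, Krt8 and Krt18 joined in MEF and Krt18 and Cdh1 in wound cells. In the gene body alone they were 1 in wound cells, and in lists of equal size 1 in MMTV-CAF. The share of all genes was not taken at these settings for PRRX1, nor for H3K4me3 at that −log10 p or for the widest 5%. These counts therefore have no background.

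Of WT H3K27ac summits, 16.7% were kept in MEF KI at a −log10 p of at least 10. Within 1 kb, MEF SG kept 74.1% and edited wound cells 86.7%. Summits without a WT counterpart made up 6.67%, 21.4% and 11.1% in MEF KI, MEF SG and MMTV-CAF SG within 1 kb, and 60% in MEF KI in lists of equal size. Both settings for these shares were added after the data were seen. Summed over all regions within 1 kb of a start site, the log2 width ratio of Vim in wound-healing SG turned from 0.36 to −0.046, since the WT list has a second region there. In lists of equal size, the difference in H3K27ac summits at the mesenchymal members turned from −9 to 3 in MEF KI and from −5 to 2 in MEF SG, and was −5 instead of −2 in MMTV-CAF and 7 instead of 18 in wound cells. Under the stricter −log10 p limit of 10, MEF KI had 6 of 9 summits without a WT counterpart (66.7%), beside 26.2% over all genes. Of mesenchymal summits, edited wound cells kept 91.7% within 1 kb, against 50% (interval 25.4 to 74.6%) as first given. MEF KI kept 20% of them under the stricter limit, against 43.5% (25.6 to 63.2%). Apart from shares of summits by lineage, all other alternatives left values within their interval or within 1.5 times. The cause of these shifts was not tested. No paired analysis was made, and these values come from no test. WT and SG lists were compared within each kind of cells and not treated as pairs across the 3 kinds.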

Other observations

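Regulators of the epithelial programme, which are factors of transcription or splicing, were counted for H3K27ac summits in the window. Of 8 such genes, 7 had one in MMTV-CAF SG, beside 64.3% of all genes, and 3 or 4 in the other 6 lists, beside 52.3% to 63% of all genes. With 1 library per group this difference was not tested. Elf3 (1 summit), Ehf (2) and Grhl2 (3) had summits in MMTV-CAF SG and 0 in the other 6 lists, and none of them had an H3K4me3 region over a TSS in any list. Within 1 kb of a TSS, Elf3 and Ehf had a summit there. The MMTV-CAF SG list was also the longest, with 61603 summits, and the part of list length in these counts was not tested. Krt8 had its highest number of summits, 8, in the same list.

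PRRX1 was listed in the window of 5 of 8 fibroblast markers in each of its 3 lists, and of 0 or 1 of 10 markers of simple or luminal epithelium (Rab25), beside 7.03% (MEF), 22.1% (MMTV-CAF) and 16.8% (wound cells) of all genes. It was also listed at 1 or 2 of 5 endothelial markers (Pecam1 in all 3 lists), 0 or 1 of 5 blood markers (Csf1r) and 0 to 2 of 8 basal markers (Trp63 and Krt17). The fibroblast markers were Col1a1, Col1a2, Thy1, Dcn and Postn in MEF, Col1a1, Col1a2, Pdgfra, Pdgfrb and Thy1 in MMTV-CAF, and Col1a1, Col1a2, Pdgfrb, Dcn and Postn in wound cells, of which the collagens Col1a1 and Col1a2 are in all 3 lists. Among the epithelial regulators, PRRX1 was listed at 0 of 8 in MEF and at 3 of 8 (Esrp2, Ovol1 and Trp63) in both MMTV-CAF and wound cells, against the same shares of all genes.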
